A study of Mus musculus with 8 samples.

Results

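The TIM and TAM receptor genes and the genes of bridging ligands, 10 genes of families known for the recognition of phosphatidylserine, were examined in prostate tissue of *Olfm4*-knockout mice. They were represented by 15 of the 45037 probe sets of the array, which are all probe sets annotated to *Havcr1*, *Havcr2*, *Timd2*, *Timd4*, *Mertk*, *Axl*, *Tyro3*, *Gas6*, *Pros1* and *Mfge8*. The set was chosen by the value of *Havcr1*, which was much lower in knockout than in wild-type prostate. The comparison of the genotypes is therefore given for these genes as a description, with no p-value, and counts of calls among them support nothing. The arrays came from whole prostate of 4 mice labelled Olfactomedin 4 KO, written *Olfm4*-/- in the methods, and 4 mice labelled wild type, written *Olfm4*+/+. All were 3 months old, and their background was a mixture, 50% 129/SV and 50% Black Swiss from the National Institutes of Health. The null allele was maintained by crossing *Olfm4*+/- mice, and each array held RNA of 1 sample of an organ made of several cell types. The methods give 5 mice per genotype where the labels give 4. A figure legend of the study gives 4 or 3 per genotype for its arrays at 3 and 15 months. *Olfm4* itself had a log2 value between 3.00 and 3.25 on the knockout arrays and between 10.23 and 10.74 on the wild-type arrays, as the labels say.

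Phosphatidylserine is a lipid that healthy cells keep on the inner side of the plasma membrane and that appears on the outer side when a cell dies by apoptosis. TIM-1, TIM-3 and TIM-4 of the TIM family bind the exposed lipid directly. The TAM receptor tyrosine kinases TYRO3, AXL and MERTK bind it through the bridging ligands GAS6 and protein S, and the milk fat globule protein MFG-E8 links it to integrins. Macrophages and some epithelial cells use these proteins to take up dying cells. TIM-1, the product of *Havcr1*, is also known as kidney injury molecule 1 and is found on injured kidney tubule cells and on subsets of B and T lymphocytes.

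The TIM genes and the genes of the TAM kinases and bridging ligands differed in the letters before their start sites. RefSeq (build GRCm38.p6, C57BL/6J, not the strains of these mice) held 13 start windows for the 10 genes, 7 for the TIM genes and 6 for the others. In the 250 bases before the start, the GC box, spelled GGGCGG and searched on both strands, was present in 0 of the 7 TIM windows and in 6 of the 6 windows of the TAM and ligand genes, against 32.7% of the 32851 windows of all genes. The GC content was 42.4% to 50.0% in the TIM windows and 54.8% to 73.2% in the others, and the median of all windows was 52.4%. The TATA box, spelled TATAAA, was in none of the 13 (0, against 12.4% of all windows). The STAT motif TTCNNNGAA was in 1, that of *Pros1* (7.0% of all windows), and the AP-1 motif TGANTCA was in 1, that of *Havcr2* (6.7% of all windows). These motifs were picked with earlier results of these data known, and a match is a string of letters, not a shown site. The windows of *Havcr1*, its neighbour *Timd4*, the kinase gene *Mertk* and the ligand gene *Mfge8* are shown because they hold this contrast, 5′ to 3′ on the strand of the gene, with the GC box or its reverse complement in capitals. They lie at chr11:46739973-46740222 (plus strand, the first of 3 starts of *Havcr1*), chr11:46810549-46810798 (plus strand), chr2:128698665-128698914 (plus strand) and chr7:79149061-79149310 (minus strand). RefSeq places the first base of the *Havcr1* gene upstream of its window, so a further start is not covered, and the arrays do not show which start was used.
*Havcr1*: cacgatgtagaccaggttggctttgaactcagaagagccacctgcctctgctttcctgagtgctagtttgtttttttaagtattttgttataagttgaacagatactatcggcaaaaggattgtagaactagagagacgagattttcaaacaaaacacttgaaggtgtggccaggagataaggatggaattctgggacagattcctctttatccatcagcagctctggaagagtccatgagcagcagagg
*Timd4*: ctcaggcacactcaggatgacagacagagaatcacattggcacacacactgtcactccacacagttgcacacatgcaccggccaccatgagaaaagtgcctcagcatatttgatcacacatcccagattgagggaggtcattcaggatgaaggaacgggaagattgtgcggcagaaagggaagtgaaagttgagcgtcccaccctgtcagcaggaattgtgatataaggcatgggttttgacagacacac
*Mertk*: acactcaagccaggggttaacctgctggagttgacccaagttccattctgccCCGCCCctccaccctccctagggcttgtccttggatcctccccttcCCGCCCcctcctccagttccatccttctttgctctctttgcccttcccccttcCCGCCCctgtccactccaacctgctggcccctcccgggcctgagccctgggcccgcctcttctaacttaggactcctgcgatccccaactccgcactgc
*Mfge8*: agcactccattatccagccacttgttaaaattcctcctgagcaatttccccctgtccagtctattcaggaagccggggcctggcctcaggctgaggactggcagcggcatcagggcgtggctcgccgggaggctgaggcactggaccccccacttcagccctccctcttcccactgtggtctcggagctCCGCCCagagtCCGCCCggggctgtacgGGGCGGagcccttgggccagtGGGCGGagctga

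The deposited values were log2 intensities made by the authors with RMA, which brings the arrays to a common distribution. Array medians lay between 6.03 and 6.09, and any pair of arrays correlated at 0.983 to 0.996. The sample titles carry 2 dates, called array days here, each with 2 arrays of both genotypes. The genotypes were compared in limma, which borrows the spread of all probe sets, with array day beside genotype. A call means a Benjamini-Hochberg adjusted p below 0.05 among all 45037 probe sets. Array 1 of either genotype was rich in seminal vesicle transcripts, with a mean log2 value of 5 measured markers of 13.75 (knockout) and 14.15 (wild type), against 7.59 to 9.81 on the other 6 arrays. The 4 measured markers, of 6 listed, of luminal epithelium, the secretory cells of the prostate, had a mean log2 value of 13.86 to 13.99. The share of prostate cells in each sample was not tested.

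*Havcr1*, the gene of the phosphatidylserine receptor TIM-1, was lower on every knockout array at both of its probe sets. At the brighter probe set, 1434716_at, the log2 values were 9.76, 10.55, 10.97 and 10.28 on wild-type arrays 1 to 4 and 6.45, 7.22, 5.72 and 4.98 on knockout arrays 1 to 4. The lowest wild-type array thus lay above the highest knockout array. The means were 10.39 ± 0.51 (SD, n = 4) and 6.09 ± 0.96 (SD, n = 4), a log2 difference of -4.30 (standard error 0.27) or a level 19.7-fold lower in knockout prostate. At the second probe set, 1450364_a_at, the log2 values were 7.23, 8.00, 8.51 and 7.37 on wild-type arrays 1 to 4. They were 5.64, 5.66, 5.41 and 5.67 on knockout arrays 1 to 4, again with no overlap of the genotypes. The log2 difference there was -2.18 (standard error 0.20), 4.54-fold lower in knockout prostate. In whole tissue, fewer cells that carry a transcript and less of it per cell cannot be told apart. Without knockout array 1 and wild-type array 1, the arrays rich in seminal vesicle transcripts, the log2 differences were -4.24 (standard error 0.36) and -2.21 (standard error 0.23).

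**Figure D1:**
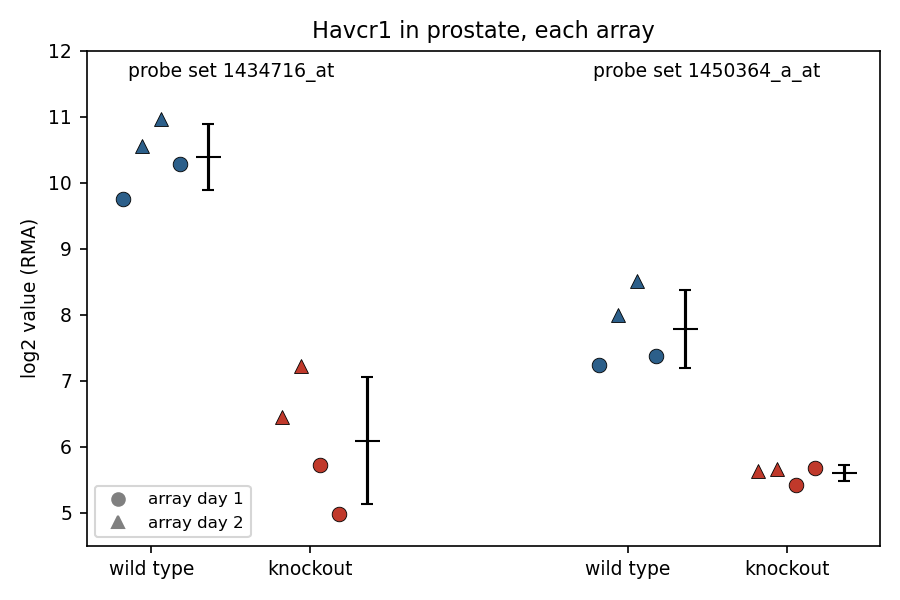
Log2 RMA value of *Havcr1* (y axis) at its 2 probe sets on each of 4 wild-type (blue) and 4 knockout (red) arrays, with circles for array day 1, triangles for array day 2 and bars for the mean ± SD. At both probe sets all knockout arrays lie below all wild-type arrays, between 4.98 and 7.22 against 9.76 and 10.97 at the first.

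In limma the only member probe sets called were the 2 of *Havcr1*, 2 of 15, where 0.111% of all probe sets were called. An analysis of variance without array day called 0 of the 15, and 24 of all 45037 probe sets. The rule that chose the set used this contrast, so nothing is read from these counts. Over the 15, all knockout arrays lay below all wild-type arrays at the 2 of *Havcr1* and above them at 1, that of *Pros1*. Of all probe sets, 8.72% had genotypes that did not overlap in either direction. The spread of *Havcr1* within a genotype differed between its probe sets. The SD was 0.51 in wild-type and 0.96 in knockout prostate on the log2 scale at 1434716_at. At 1450364_a_at it was 0.59 in wild-type but 0.12 in knockout prostate. The knockout values there, 5.41 to 5.67, all lay below the array medians of 6.03 to 6.09. At 1434716_at those of knockout arrays 3 and 4, 5.72 and 4.98, did too. The part of low signal in these spreads and in the sizes of the differences was not tested.

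*Havcr1* was also compared between the dates in the sample titles, a contrast that did not choose the set. At the brighter probe set the day 2 arrays were higher than the day 1 arrays in both genotypes, 6.45 and 7.22 against 5.72 and 4.98 in knockout and 10.55 and 10.97 against 9.76 and 10.28 in wild-type prostate. The log2 difference, day 2 minus day 1, was 1.11 (standard error 0.27), which did not pass over all probe sets (adjusted p = 0.950 in limma). At the second probe set the wild-type arrays of day 2, 8.00 and 8.51, lay above those of day 1, 7.23 and 7.37, but the knockout arrays overlapped, 5.64 and 5.66 on day 2 and 5.41 and 5.67 on day 1. The log2 difference between the days was 0.53 (standard error 0.20, adjusted p = 0.950 in limma). No member was called between the days in limma or in an analysis of variance of each probe set alone (0 of 15 in each, where 0% of all probe sets were called in limma). The latter is the kind of test that the study names for genotype, and it is called the methods' test here. The study describes no test of array day, which was added to genotype for the comparisons of days. Shares over all probe sets or genes are given for limma only. At an unadjusted p under 0.05, 2 of 15 member probe sets passed between days in limma, both of *Havcr1*, and 1 of 15 in the methods' test, where 4.62% of all probe sets did in limma. The labels do not say what was done on these dates.

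The size of the genotype difference of *Havcr1* moved in opposite directions between the days at its 2 probe sets. At 1434716_at the log2 difference, knockout minus wild type, was -4.67 on day 1 and -3.93 on day 2, and at 1450364_a_at it was -1.76 and -2.61. The change between the days was 0.74 (standard error 0.51, adjusted p = 0.890 in limma) at the first and -0.85 (standard error 0.26, adjusted p = 0.890 in limma) at the second. No member was called for such a change in limma or in the methods' test (0 of 15 in each, where 0.00222% of all probe sets were called in limma). At an unadjusted p under 0.05, 1 of 15 passed in limma and 1 of 15 in the methods' test, where 4.90% of all probe sets did in limma.

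The other TIM genes, which lie beside *Havcr1* in a cluster on chromosome 11, had overlapping genotypes. *Havcr2* encodes TIM-3, an inhibitory receptor of T cells and of myeloid cells. It had log2 values of 5.65, 5.87, 5.34 and 5.46 on wild-type arrays 1 to 4 and of 5.55, 5.61, 5.54 and 5.49 on knockout arrays 1 to 4. The knockout values lay within the range of the wild-type values, with a log2 difference of -0.031 (standard error 0.12). *Timd4* encodes TIM-4, a receptor of resident macrophages that tethers dying cells. Its log2 values were 5.26, 5.35, 4.64 and 4.83 on wild-type arrays 1 to 4 and 5.39, 5.39, 5.12 and 5.48 on knockout arrays 1 to 4. Wild-type arrays 3 and 4 lay below all knockout arrays and the others did not. The log2 difference was 0.32 (standard error 0.18), or 0.17 without wild-type array 3 and 0.45 without wild-type array 2. *Timd2*, a mouse family member that binds ferritin, had values between 3.71 and 4.10 at its brighter probe set and between 3.41 and 3.78 at its second, which by its name may also bind related transcripts. Of all probe sets, 17.6% and 12.8% had a mean no higher than these, so both are close to background and say little about *Timd2* in either genotype. Its log2 differences were -0.14 (standard error 0.12) and -0.053 (standard error 0.096).

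Among the TAM receptor kinases the differences were small. *Mertk*, the kinase receptor with which macrophages engulf dying cells, had log2 values of 10.88, 11.09, 11.13 and 11.11 on wild-type arrays 1 to 4. On knockout arrays 1 to 4 they were 10.86, 10.85, 10.93 and 10.66. Wild-type array 1 lay among the knockout arrays, and the other wild-type arrays lay above all of them. The log2 difference was -0.23 (standard error 0.086). *Axl*, a kinase of macrophages and stromal cells that binds GAS6, had log2 values of 8.50, 8.55, 8.51 and 8.52 on wild-type arrays 1 to 4 and of 8.70, 8.54, 8.58 and 8.65 on knockout arrays 1 to 4. All knockout arrays but array 2 lay above the wild-type arrays, and the log2 difference was 0.096 (standard error 0.063). The second probe set of *Axl*, of a type that can bind other transcripts, had values of 3.04 to 3.23, and 4.39% of all probe sets had a mean no higher. *Tyro3*, a kinase known from the nervous system and testis, had log2 values between 7.84 and 8.58 in wild-type and between 7.88 and 8.47 in knockout prostate at its brighter probe set. Its differences had opposite signs at its probe sets, -0.039 (standard error 0.17) and 0.12 (standard error 0.11). Without wild-type array 4 they were -0.22 and 0.015, and without wild-type array 1 they were 0.072 and 0.22.

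The bridging ligands had differences of either sign. *Gas6*, the ligand of all the TAM kinases, had log2 values of 11.86, 12.21, 12.37 and 12.26 on wild-type arrays 1 to 4 and of 11.59, 12.01, 12.18 and 12.00 on knockout arrays 1 to 4. In each genotype the array rich in seminal vesicle transcripts was the lowest. The log2 difference was -0.23 (standard error 0.16), but it was -0.093 without knockout array 1 and -0.36 without wild-type array 1, and it was 0.032 on day 1 and -0.49 on day 2. Without both of those arrays it was -0.22 (standard error 0.10). A second probe set of *Gas6* was dimmer and had a log2 difference of -0.050 (standard error 0.091). *Pros1*, the gene of protein S, an anticoagulant and ligand of MERTK and TYRO3, had log2 values of 10.60, 10.62, 10.55 and 10.41 on wild-type arrays 1 to 4. On knockout arrays 1 to 4 they were 11.14, 10.63, 10.63 and 10.87. The genotypes did not overlap, but knockout array 2 at 10.628 and wild-type array 2 at 10.625 almost touched. The log2 difference was 0.27 (standard error 0.12), or 0.16 without knockout array 1 and 0.37 without knockout array 2. *Mfge8*, the gene of the integrin-bound bridging protein MFG-E8, had log2 values between 11.80 and 12.04 in wild-type and between 11.71 and 12.04 in knockout prostate, with a log2 difference of -0.020 (standard error 0.086). Over the 10 genes, at the brightest probe set, 7 had a lower and 3 a higher mean in knockout prostate. Apart from *Havcr1*, no log2 difference at a brightest probe set exceeded 0.32 in size.

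**Figure D2:**
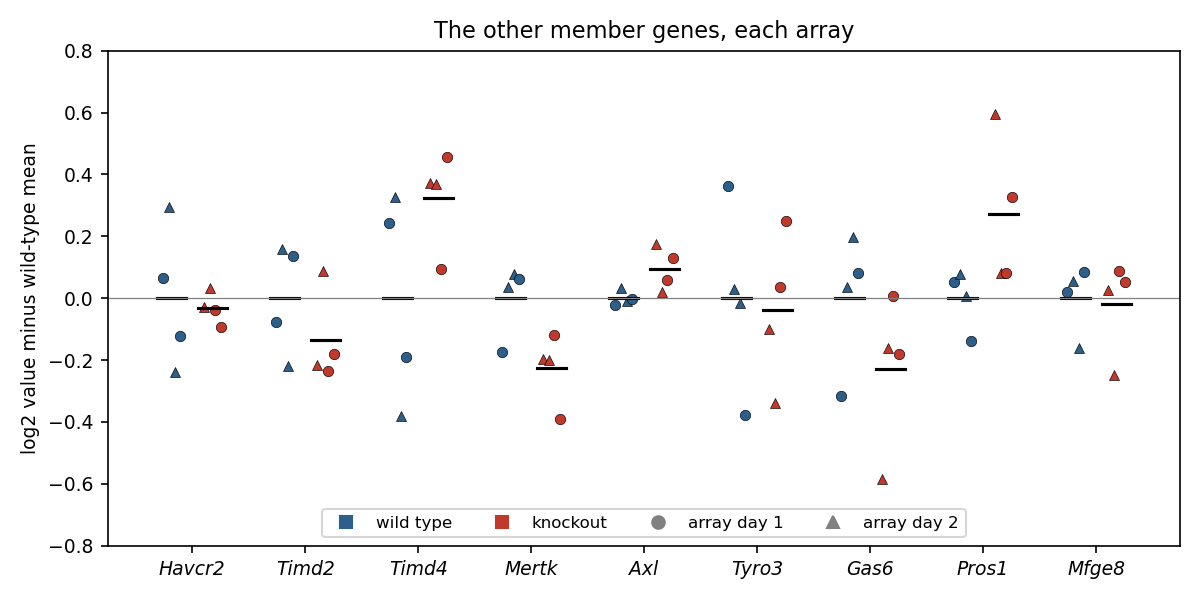
Log2 RMA value minus the wild-type mean of the gene (y axis) for the 9 members other than *Havcr1*, each at its brightest probe set, with a point per array (blue wild type, red knockout, circles day 1, triangles day 2) and a bar for each genotype mean over 4 arrays. The genotypes overlap for every gene but *Pros1*, and means differ by 0.020 (*Mfge8*) to 0.32 (*Timd4*) in size.

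Genes next to *Havcr1* on chromosome 11 were compared between the genotypes. Of the 25 RefSeq genes on either side, 16 had a probe set of their own, among them *Havcr2*, *Timd2* and *Timd4*. None of the 16 was called in limma or in the methods' test (0, where 0.170% of all 18193 genes were called at their brightest probe set), and at an unadjusted p under 0.05 there were 0 in both, where 14.8% of all genes passed in limma. Their log2 differences lay between -0.18 and 0.32, with a median of 0.048. *Med7*, *Trim41* and *Trim7* had wild-type means of 11.66, 11.73 and 8.23, and *Med7* and *Trim7* are named after their values were seen. The others had wild-type means of 3.28 to 6.95, which leave little or no room for a fall as large as that of *Havcr1*. The nearest measured genes outside the family had log2 differences of -0.068 (*Gm4926*, standard error 0.11, wild-type mean 3.28) and 0.18 (*BC053393*, standard error 0.12, wild-type mean 5.39) on one side. On the other side they were 0.076 for *Sgcd*, which encodes a sarcoglycan of muscle membranes (standard error 0.12, wild-type mean 5.00), and 0.15 for *Trim41*, which encodes a ubiquitin ligase (standard error 0.11).

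**Figure D3:**
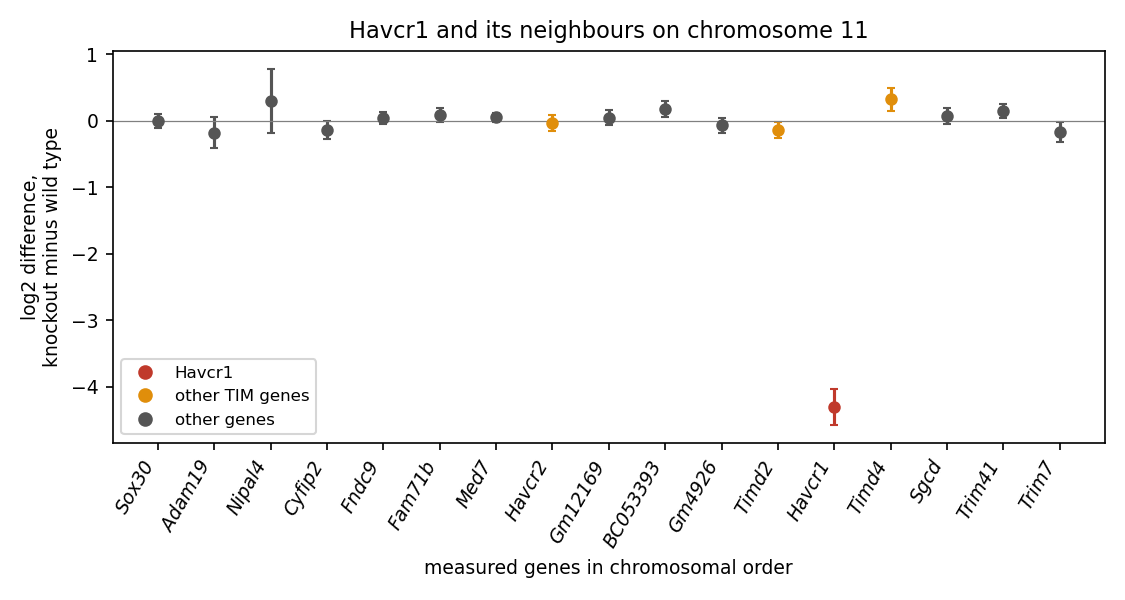
Log2 difference, knockout minus wild type, with its standard error from limma (y axis), of *Havcr1* (red) and the 16 measured genes among its 25 neighbours on either side, in chromosomal order (x axis, ranks only). *Havcr1* lies at -4.30 and every neighbour, the other TIM genes (orange) included, between -0.18 and 0.32.

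The genes whose values lay closest to those of *Havcr1* over the 8 arrays included none of its neighbours. Likeness was the root mean square difference of the log2 values after the wild-type mean of each gene was subtracted, so it mostly finds genes with a large difference between the genotypes. No measured neighbour had such a difference, so the absence of neighbours follows from their values above and adds nothing. The closest were *Adamdec1* (0.83) and *Adam28* (1.20), both metalloprotease genes on chromosome 14, then *Pdgfd* (1.34) and *Casp4* (1.40) on chromosome 9 and *Ang3* (1.75), which encodes a ribonuclease of the angiogenin family. For scale, the profile of *Havcr1* had a root mean square of 3.11. *Ang3* varied within the genotypes, with log2 values of 6.93 to 10.89 in knockout and 9.81 to 11.62 in wild-type prostate.

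Other genes of the pathway, and genes that injured epithelium turns on, were followed in 6 lists, which hold 75 measured genes of 82 listed. None was called in limma or in the methods' test (0 of 75 in each, against 0.170% of all genes), and the knockout mean was above the wild-type mean for 38 and below it for 37. Before adjustment, 9 had a p below 0.05 in limma (3 with a higher and 6 with a lower knockout mean), 12% of the 75, where 14.8% of all genes did. The methods' test gave 10, a count with no share of all genes from that test beside it. The smallest adjusted p was 0.267. The median log2 difference of a list ran from -0.062 to 0.13, and that of all genes was -0.015.

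Of 20 other phosphatidylserine receptors and bridging proteins, 11 had a higher and 9 a lower mean, with a median of 0.032. *Stab2*, a scavenger receptor gene of sinusoidal endothelium, had a log2 difference of 0.59 (standard error 0.18, adjusted p = 0.292 in limma). *Scarb1*, the gene of the scavenger receptor SR-BI, had one of -0.18 (standard error 0.072, adjusted p = 0.361 in limma), and *Adgrb1*, which encodes the receptor BAI1, one of 0.21 (standard error 0.10, adjusted p = 0.441 in limma). Of 15 measured genes of engulfment signaling and cholesterol export, 9 had a higher and 6 a lower mean, with a median of 0.040. *Abca7*, a lipid transporter gene, had a log2 difference of -0.38 (standard error 0.11, adjusted p = 0.267 in limma). The adaptor gene *Crk* had one of 0.21 (adjusted p = 0.343 in limma) and *Dock1*, which encodes an activator of RAC1, one of 0.16 (adjusted p = 0.353 in limma).

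Genes that expose phosphatidylserine or signal from dying cells had a median of -0.062 over 16 measured genes, 7 higher and 9 lower. *Atp8a1*, which encodes a flippase that returns the lipid to the inner side, had a log2 difference of -0.28 (standard error 0.10, adjusted p = 0.340 in limma). *Tmem30a*, which encodes the partner subunit of flippases, had one of 0.19 (adjusted p = 0.448 in limma), and the flippase gene *Atp11a* one of 0.13 (adjusted p = 0.477 in limma). Among 8 measured genes of TIM ligands and adaptors, 2 had a higher and 6 a lower mean, with a median of -0.035. The ferritin heavy chain gene *Fth1* had a log2 difference of 0.14 (adjusted p = 0.450 in limma), the P-selectin gene *Selp* 0.44 (adjusted p = 0.504 in limma) and *Bag6*, an adaptor gene of TIM-3, -0.078 (adjusted p = 0.686 in limma). *Selp* had its highest value, 8.66, on knockout array 1.

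Among 9 measured genes of TAM signaling, receptor shedding and ligand carboxylation, 5 had a higher and 4 a lower mean, with a median of 0.024. The sheddase gene *Adam10* had a log2 difference of 0.22 (adjusted p = 0.398 in limma), the adaptor gene *Grb2* -0.12 (adjusted p = 0.516 in limma) and the interferon receptor gene *Ifnar2* -0.14 (adjusted p = 0.528 in limma). Genes that injured epithelium turns on, as *Havcr1* is turned on in kidney, had a median of 0.13 over 7 measured genes, 4 higher and 3 lower. *Sox9*, a progenitor transcription factor gene, had a log2 difference of -0.67 (standard error 0.22, adjusted p = 0.303 in limma), *Vim*, the gene of the filament protein vimentin, 0.13 (adjusted p = 0.675 in limma) and the adhesion gene *Vcam1* -0.19 (adjusted p = 0.716 in limma).

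**Figure D4:**
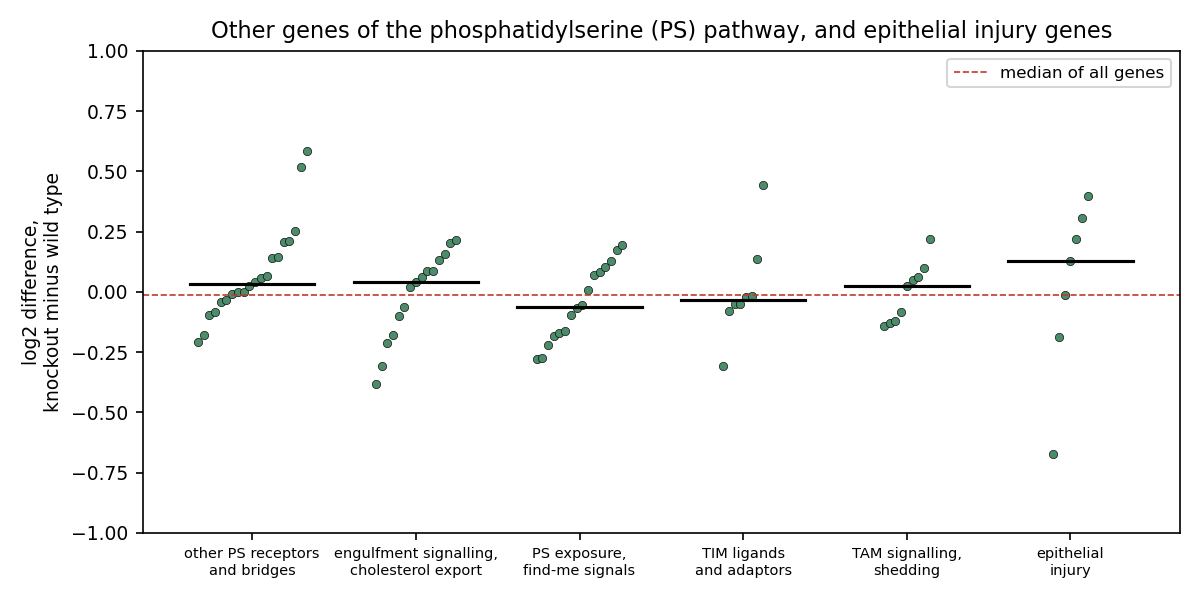
Log2 difference, knockout minus wild type (y axis), of each measured gene in 6 lists (x axis), with a point per gene in order of size, a black bar at the median of the list and a dashed red line at the median of all genes, -0.015. The medians lie between -0.062 and 0.13, and no gene was called.

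Markers of the cells that carry these receptors were set beside them. Of 8 measured markers of T and B lymphocytes, 7 had a lower knockout mean and none was called, with a median log2 difference of -0.59. Their mean log2 value was 5.53 to 5.99 on knockout and 5.85 to 6.64 on wild-type arrays. The T cell gene *Cd3e* had log2 values between 7.00 and 7.70 in knockout and between 7.51 and 8.38 in wild-type prostate. Its log2 difference was -0.66 (standard error 0.20, adjusted p = 0.281 in limma). The B cell gene *Ms4a1* had values of 6.63 and 6.50 on wild-type arrays 1 and 2, but of 4.42 and 4.16 on wild-type arrays 3 and 4 and of 3.83 to 4.35 on the knockout arrays. The part of lymphocytes in the difference of *Havcr1* was not tested.

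Markers of macrophages, cells known to carry MERTK, AXL and TIM-4, had a mean log2 value of 9.16 to 9.75 on knockout and 9.23 to 9.71 on wild-type arrays. Of 12 measured macrophage markers, 4 had a higher and 8 a lower mean, none was called, and the median log2 difference was -0.042. Fibroblast markers had a higher mean for 6 of 6 genes, with a median of 0.24 and mean log2 values of 10.14 to 10.62 on knockout and 10.03 to 10.30 on wild-type arrays, and none was called. The part of macrophages or fibroblasts in the differences of the TAM kinases and their ligands was not tested. Of the other listed cell types, basal epithelium had a higher knockout mean for 4 of 4 markers (median 0.18). Endothelium and smooth muscle each had 5 higher and 1 lower (medians 0.087 and 0.017). Dendritic cells had 2 higher and 4 lower (median -0.082), and luminal epithelium had 2 higher and 2 lower (median 0.036). None of these markers was called.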

How the data were processed

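Total RNA of whole prostate, 4 *Olfm4*-/- and 4 *Olfm4*+/+ samples, was hybridised to Affymetrix mouse expression arrays. The deposited log2 values were made by the authors with RMA (version not given in the sources used here) and hold no detection calls. Group, replicate number and array day (the date) came from the sample titles. There are no reads, so precision is set by the number of arrays.

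After removal of 64 control probe sets, limma 3.58.1 (R 4.3.3) was fitted to the remaining 45037 with genotype and array day, 2-sided, and p-values were adjusted over all of them. Array day was tested in that fit and genotype by day in a fit with an interaction. The methods name ANOVA with no covariates, which was an alternative. Of the probe sets 34945 had 1 gene symbol, 932 several and 9160 none. A gene was represented by its brightest probe set, and names and gene order came from the RefSeq table of GRCm38.p6. The fits were tested on simulated data.

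The members and lists were chosen with earlier results of these data known. Named were all members and up to 3 genes by p of each list of pathway or injury genes. The 2 nearest measured genes outside the family on either side of *Havcr1* and the 5 genes closest to it in profile were also named. Single lymphocyte markers were named after their values were seen. The methods speak of individual mice, and whether these were littermates is not stated, so p-values measure the spread between these samples.

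The alternatives left out array day, put the replicate number in its place, used ANOVA, let the variance follow the intensity with robust fitting, weighted or centred the arrays, normalized them again by quantiles or cyclic loess, kept only means of at least 5 or 7, took each day alone, averaged the probe sets of a gene, and left out arrays.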

Additional observations from a re-analysis of the deposited data

Results flagged for a closer look

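In 3 of 30 groups of 4 arrays, 1 array stood apart from the other 3 by more than Dixon's critical value, where chance flags about 1 in 20. These were knockout array 3 at the second probe set of *Havcr1* (5.41 on the log2 scale, with the others between 5.64 and 5.67), knockout array 2 at the brighter probe set of *Timd2* (4.03, the others between 3.71 and 3.76) and wild-type array 1 at *Mertk* (10.88, the others between 11.09 and 11.13). The last was also rich in seminal vesicle transcripts, and the part of these in its *Mertk* value was not tested.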

How the results depend on the processing

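The brighter probe set of *Havcr1* was lower in knockout prostate under all 22 alternatives, with a log2 difference between -4.67 (day 1 alone) and -3.24 (mean of both probe sets) and between -4.53 and -4.08 when 1 array was left out. Of the 2 called probe sets of *Havcr1*, 0 were called with the replicate block in place of array day, 0 in ANOVA without array day, and 0 on array day 1 alone and 0 on array day 2 alone, with 2 arrays against 2. One remained (1) at a mean log2 value of at least 7, which removes the other, and 1 without knockout and wild-type array 1 together. When 1 array was left out 1 to 2 were called, and 1 when this was knockout array 2, knockout array 3 or wild-type array 2. The cause was not tested. Over all probe sets there were 50 calls, 20 with the replicate block, 24 in ANOVA, 4 on either day alone, and 17 to 43 without 1 array. The lower counts came with the removal of knockout array 2 (24), 3 (26) and 4 (20) and of wild-type array 2 (17) and 3 (19). The labels do not say whether the replicate numbers pair the mice. Deviations of same-numbered arrays correlated at 0.34, 0.17, 0.043 and -0.0056, and 3 of 8 arrays correlated best with their own number. So few arrays cannot decide whether the mice were paired.

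No gene of the 6 lists, no neighbour of *Havcr1* and no member between days was called under any alternative run for them (0 in each). Of the other members at their brightest probe set, *Axl*, *Mertk*, *Pros1*, *Timd2* and *Timd4* kept the sign of their difference under all alternatives run, and *Gas6*, *Havcr2*, *Mfge8* and *Tyro3* changed it under 1, 3, 4 and 7. Probe sets near background, those of *Timd2* and the second of *Axl*, limit what can be said of these genes. *Havcr2* and *Timd4* had means over all arrays of 5.56 and 5.18, below the array medians. Such values left little room for a fall as large as that of *Havcr1*.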
